A study of Mus musculus with 9 samples.

Results

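*Sox9*, *Runx1*, *Runx2* and *Sp7* encode transcription factors of the cartilage and bone lineages. These 4 genes were chosen by name out of the 54534 features (annotated genes and 2 transgenes) that the count matrices list, and all 4 had reads in cells that passed quality control. They were followed through 9 single-cell RNA sequencing libraries (10x Genomics, 5′ chemistry) of stromal cells sorted from dissected, collagenase-digested mouse knees, in steady-state and 6 days after surgery to the cartilage surface. The surgery was an arthrotomy of the right knee with a full-thickness scratch along the trochlear groove. All mice, those in steady-state included, were 11 to 12 weeks old and carried *Gdf5*-Cre, a Tom reporter and *Pdgfrα*-H2BGFP. Because Cre was driven by *Gdf5* regulatory sequence, Tom marks cells that descend from the embryonic joint interzone and not adult *Gdf5* expression, while GFP follows the *Pdgfrα* promoter. The groups are Tom+ steady-state (2 libraries), Tom+ injured (4), Tom-GFP+ steady-state (1) and Tom-GFP+ injured (2), where Tom-GFP+ cells lack Tom and are positive for GFP. The Tom-GFP+ cells came from mice that also gave Tom+ cells, and the p-values below measure the spread between libraries.

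Sox9 switches on the genes of cartilage matrix together with its partners Sox5 and Sox6, and it is needed for a mesenchymal cell to become a chondrocyte. Runx1 and Runx2 belong to one family of factors that bind DNA with the shared partner Cbfβ. Runx2 is required for osteoblast formation and for chondrocyte hypertrophy, Runx1 is best known from blood formation and is also present in skeletal mesenchyme and perichondrium, and Sp7 (osterix) acts after Runx2 in osteoblast differentiation. In skeletal development, cells that still carry Sox9 together with Runx2 are regarded as not yet committed between cartilage and bone.

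The 2 Runx genes measured here share a stretch of sequence at a transcript start, shown because it holds the letters that Runx proteins recognise. The promoter windows (RefSeq sequences, build GRCm38.p6, 250 bases before to 50 bases after the start) matched 2 of the 4 genes, *Runx1* and *Runx2*. *Runx3*, the third gene of the family and one of the partner genes followed below, is given beside them, with the tandem ACCACA letters in capitals.
Runx1: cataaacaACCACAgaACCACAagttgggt
Runx2: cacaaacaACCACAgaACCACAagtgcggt
Runx3: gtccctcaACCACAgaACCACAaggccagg
The *Runx1* stretch lies at chr16:92826025-92826054 (minus strand), from 21 to 50 bases after the start of the transcript. The *Runx2* stretch lies at chr17:44814583-44814612 (minus strand), from 16 to 45 bases after the start. The *Runx3* stretch lies at chr4:135120503-135120532 (plus strand), from -142 to -113 relative to the start. The longest run of bases that the *Runx1* and *Runx2* promoters share is 22 bases. ACCACA occurring in tandem with 2 bases between the copies was found, on either strand, in 7 of 32851 promoters (0.0213%), and 3 of these 7 belong to the Runx genes. By comparison, 22.4% of the promoters held at least 1 copy of ACCACA or ACCGCA on either strand. The second *Runx1* promoter in the table held none of these letters, and a match of letters is a description and not a measured binding site. *Sox9* and *Sp7* are named only.

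In the annotation of the build (GRCm38, GENCODE vM21), *Sox9* (ENSMUSG00000000567) lies at chr11:112782224-112787760 on the plus strand and *Sp7* (ENSMUSG00000060284) at chr15:102356606-102367182 on the minus strand, neither with an overlapping gene. *Runx1* (ENSMUSG00000022952) spans chr16:92601466-92826149 on the minus strand, and the antisense gene within it had 0 UMIs. *Runx2* (ENSMUSG00000039153) spans chr17:44495987-44814797 on the minus strand and overlaps 5 genes, among them *Supt3* with 720 UMIs and *Runx2os1* with 317 UMIs, both on the opposite strand. The strand setting of the counting is not given in the sources used here, so reads of *Runx2* and of these neighbours could not be separated further.

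Of 5161 barcodes, 4788 passed quality control. Library totals ran from 2866464 to 15033902 UMIs (unique molecular identifiers, each counting 1 captured RNA molecule), and the median cell held 8050.5 to 8647 UMIs in the steady-state libraries against 12223 to 18567 in the injured ones. Levels are therefore given as CPM, the UMIs of a gene divided by all UMIs of the same cells and scaled to 1e6, and shares of cells with a UMI are also given after every cell was thinned to 4000 UMIs. Tom+ injured library 1 stands apart by its depth and, alone among the injured libraries, was deposited in the older gene-list format of the steady-state libraries. Globin UMIs in *Thy1*+ fibroblasts summed to 119 CPM in Tom-GFP+ injured library 2 against 0.367 to 5.92 CPM in the other 8 libraries. Between libraries, 14 barcodes were shared.

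Cells were assigned by markers that include none of the 4 genes. The *Thy1*+ fibroblast gate (*Thy1*, *Cd34*, *Clec3b* and others) held 2512 cells, and the gate for fibroblast-like synoviocytes (FLS, the lining cells marked by *Clic5* and *Tspan15*) held 704. The osteoblast-lineage gate (*Bglap*, *Ibsp*, *Dmp1* and others) held 150 cells, the chondrocyte-lineage gate (*Col2a1*, *Acan*, *Chad* and others) 99 and the tenocyte-lineage gate (*Tnmd*, *Kera*, *Thbs4* and others) 209, and 37 cells passed both the osteoblast and the chondrocyte gates. No gate took 707 cells. The median depth was 17490 UMIs per cell in FLS, 14378 in tenocyte-lineage cells, 10804.5 in *Thy1*+ fibroblasts, 7690 in chondrocyte-lineage cells and 7345 in osteoblast-lineage cells. The sorted cells also held immune (109), mural (92) and endothelial (22) cells, and immune cells served to judge the background.

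*Sox9* was detected in 1166 cells (24.4%), *Runx1* in 2326 (48.6%), *Runx2* in 575 (12.0%) and *Sp7* in 165 (3.45%). A *Runx2*-positive cell usually held a single UMI, which was so in 72.9% of them, and the highest count of *Runx2* or *Sp7* in any cell was 8 UMIs. In immune cells (median 8349 UMIs), *Sox9* was found in 2 of 109 cells (1.83%, exact 95% interval 0.223% to 6.47%), *Runx2* in 3 of 109 (2.75%, 0.571% to 7.83%) and *Sp7* in 0 of 109, which allows a share of up to 2.75%. These shares set the background for the 3 skeletal factors, and such intervals cover counting error only. *Runx1* was found in 40 of 109 immune cells (36.7%, 27.7% to 46.5%), a cell type in which it is known to be expressed.

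**Figure D1:**
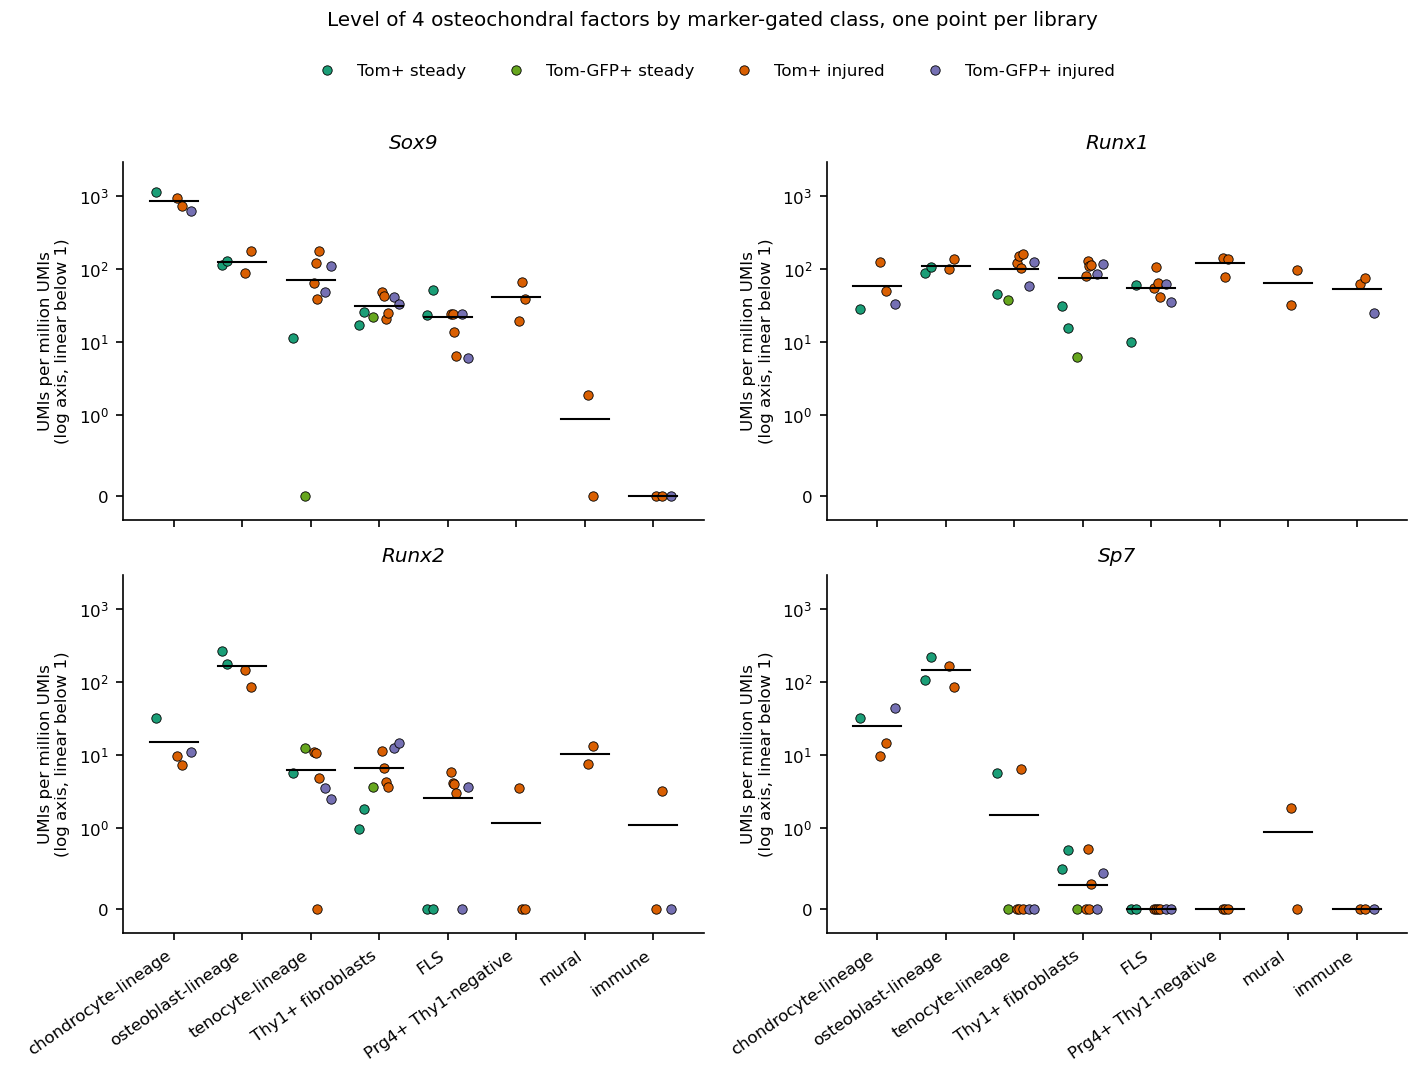
Level of each gene (CPM, log axis that is linear below 1) in 8 marker-gated classes, with 1 point for each library with at least 10 cells of the class, coloured by group, and a line at the mean over libraries. *Sox9* peaks in the chondrocyte-lineage class (629.6 to 1138 CPM), *Runx2* and *Sp7* peak in the osteoblast-lineage class (85.0 to 269 and 85.0 to 223 CPM), and *Runx1* has no such peak.

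*Sox9* was highest in chondrocyte-lineage cells, at 864 ± 229 CPM (SD, n = 4 libraries). Osteoblast-lineage cells followed at 128 ± 37.7 CPM (SD, n = 4), tenocyte-lineage cells at 72.3 ± 61.3 (SD, n = 8), *Prg4*+ *Thy1*-negative cells at 41.7 ± 23.5 (SD, n = 3), *Thy1*+ fibroblasts at 30.9 ± 11.4 (SD, n = 9) and FLS at 21.8 ± 14.3 (SD, n = 8). The plot of levels by class shows that the chondrocyte-lineage libraries lie above all others, whereas each later class overlaps its neighbour in this order. Mural cells (0.95 ± 1.34 CPM, SD, n = 2) and immune cells (0 in all 3 libraries with at least 10 such cells) lie at the bottom. Cells outside every gate averaged 89.0 ± 39.9 CPM (SD, n = 9), so the gates do not hold all *Sox9* of these joints.

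In the chondrocyte-lineage gate, *Sox9* stood at 1138 CPM in Tom+ steady-state library 2, at 961 and 729 CPM in Tom+ injured libraries 3 and 4 and at 629.6 CPM in Tom-GFP+ injured library 1. The *Thy1*+ fibroblasts of the same 4 libraries held 25.7, 20.5, 25.1 and 41.5 CPM. The 2 classes did not overlap, and the log2 fold change was 4.88 (SE 0.34, edgeR adjusted p = 2.24e-09, n = 4 libraries), in a comparison that called 16.6% of all genes tested in either direction. *Sox9* was found in 34 of 36 steady-state and in 57 of 63 injured cells of this gate. The gene was therefore detected in nearly every cell of the gate in either state, at a median depth below that of the fibroblasts.

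Osteoblast-lineage cells also held more *Sox9* than fibroblasts. The 2 Tom+ steady-state libraries gave 114 and 131 CPM in osteoblast-lineage cells against 17.3 and 25.7 CPM in *Thy1*+ fibroblasts, and Tom+ injured libraries 1 and 2 gave 88.4 and 178 CPM against 49.0 and 43.6 CPM. The difference was 1.89 on the log2 scale (SE 0.27, edgeR adjusted p = 0.000573, n = 4), where 9.9% of genes were called. The chondrocyte marker list, summed over its 9 genes, stood at 566 to 1550 CPM in these osteoblast-lineage cells against 23.6 to 155 CPM in the Tom+ *Thy1*+ fibroblasts, and its part in the *Sox9* difference was not tested.

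In tenocyte-lineage cells *Sox9* stood higher in the injured libraries than in the few steady-state cells. The steady-state libraries with at least 10 such cells held 11.3 CPM (Tom+ library 2) and 0 CPM (Tom-GFP+ library 1). These come from 2 of 20 and 0 of 16 cells with a UMI, where a level of 3 UMIs would be 16.9 and 18.8 CPM. After injury the 4 Tom+ libraries held 65.2, 121, 39.2 and 181 CPM, and the 2 Tom-GFP+ libraries 49.2 and 112 CPM. All 6 injured libraries lay above both steady-state libraries, and how many of all genes show no such overlap was not counted. *Sox9* was found in 77 of 170 injured cells (45.3%) against 2 of 39 steady-state cells (5.13%), or 19.4% against 2.63% at equal depth. This difference between states was not tested, and in the tenocyte cluster of all cells, taken in place of the gate, the pooled levels were 12.0 and 61.5 CPM while the libraries of the states overlapped. Beside it, the 5 tenocyte markers summed to 13865 to 18292 CPM in the steady-state libraries and to 3163 to 7227 CPM in the injured ones, the 9 chondrocyte markers to 4711 and 5344 against 398 to 1273 CPM, and the 6 *Thy1*+ fibroblast markers to 9012 and 9421 against 2293 to 7743 CPM. The 4 injury markers summed to 119 and 231 CPM before and to 281 to 1180.3 CPM after injury. The part of these lists in the difference was not tested, and 84 of its 170 injured cells passed the injury-induced gate described below.

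Over both states, tenocyte-lineage cells exceeded *Thy1*+ fibroblasts of the same 8 libraries in *Sox9* by 1.11 (log2, SE 0.31, edgeR adjusted p = 0.0330), where 7.05% of genes were called. This call was lost without Tom+ injured library 2 (1.00, edgeR adjusted p = 0.136), Tom+ injured library 4 (0.83, adjusted p = 0.102) or Tom-GFP+ injured library 2 (0.99, adjusted p = 0.107), and with classes taken from clusters the value was -0.08 (adjusted p = 0.933).

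FLS held less *Sox9* than *Thy1*+ fibroblasts in each injured library, but more in both Tom+ steady-state libraries. There FLS held 23.3 and 51.2 CPM against 17.3 and 25.7 CPM in the fibroblasts. Across the 8 libraries with both classes the difference was -0.93 (log2, SE 0.24, edgeR adjusted p = 0.00736), in a comparison that called 37.7% of genes. The same comparison gave -0.79 for *Runx1* (SE 0.25, edgeR adjusted p = 0.0207) and -1.06 for *Runx2* (SE 0.31, adjusted p = 0.0134). In Tom+ steady-state library 2, however, *Runx1* was higher in FLS (61 against 15.8 CPM). All 3 members tested were thus called, where more than 1 in 3 of all genes were. Doubling the gate thresholds ended the *Sox9* call (-0.66, edgeR adjusted p = 0.0744). The *Runx1* call was lost without Tom-GFP+ injured library 2 (-0.64), Tom+ injured library 3 (-0.76) or Tom+ injured library 4 (-0.65).

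*Runx2* was highest in osteoblast-lineage cells, at 169.6 ± 76.7 CPM (SD, n = 4). The next classes were chondrocyte-lineage cells at 15.2 ± 11.8 CPM (SD, n = 4), mural cells at 10.47 ± 4.05 (SD, n = 2), *Thy1*+ fibroblasts at 6.64 ± 5.0 (SD, n = 9) and tenocyte-lineage cells at 6.33 ± 4.53 (SD, n = 8). The chondrocyte-lineage mean rests on few cells. *Runx2* was found there in 4 of 24 cells of Tom+ steady-state library 2. It was found in 1 of 18 and 1 of 15 cells of Tom+ injured libraries 3 and 4, and in 1 of 12 cells of Tom-GFP+ injured library 1. FLS (2.61 ± 2.31 CPM, SD, n = 8), *Prg4*+ *Thy1*-negative cells (1.18 ± 2.04, SD, n = 3) and immune cells (1.09 ± 1.88, SD, n = 3) came last. Cells outside every gate averaged 31.1 ± 24.8 CPM (SD, n = 9), and with 93.3 CPM in Tom-GFP+ steady-state library 1 (26 cells) they reached into the range of the osteoblast-lineage cells. Among the named classes, only the step from osteoblast-lineage cells to the next class separated libraries without overlap.

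By library, osteoblast-lineage cells held 269 and 177 CPM of *Runx2* in the Tom+ steady-state and 147 and 85.0 CPM in Tom+ injured libraries 1 and 2. The *Thy1*+ fibroblasts of the same libraries held 0.987 and 1.84 CPM and 11.3 and 6.73 CPM. The log2 fold change was 4.80 (SE 0.50, edgeR adjusted p = 5.91e-05, n = 4). In chondrocyte-lineage cells, where *Runx2* accompanies hypertrophy, the value against fibroblasts was 1.86 (SE 0.73, edgeR adjusted p = 0.0994), and it passed the threshold without Tom-GFP+ injured library 1 (2.54, adjusted p = 0.0292). Both values rest on the few *Runx2*-positive chondrocyte-lineage cells given above.

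*Sp7* was the most restricted of the 4 genes. It stood at 145 ± 61.9 CPM (SD, n = 4) in osteoblast-lineage cells, at 25.3 ± 16.0 CPM (SD, n = 4) in chondrocyte-lineage cells and at no more than 6.53 CPM in any tenocyte, mural, FLS, immune or fibroblast library with at least 10 cells of the class. In the osteoblast-lineage gate the Tom+ steady-state libraries held 108 and 223 CPM and Tom+ injured libraries 1 and 2 held 165 and 85.0 CPM. Against *Thy1*+ fibroblasts the log2 fold change was 8.12 for osteoblast-lineage cells (SE 0.46, edgeR adjusted p = 8.13e-07) and 6.32 for chondrocyte-lineage cells (SE 0.84, adjusted p = 1.24e-05). Both values rest on very low fibroblast counts. All 9 libraries together held 8 UMIs in 2512 cells, and each test used the fibroblasts of only 4 of them. *Sp7* passed the filter on low counts through the osteoblast-lineage or chondrocyte-lineage cells, since within fibroblasts it was too low to test. The size of both values therefore depends on the prior count of the fit, and the standard errors do not cover this. In FLS *Sp7* was found in 0 of 704 cells, which allows a share of up to 0.426% of cells with a UMI and sets no limit on cells that express the gene.

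*Runx1* showed no single class that stood apart over the libraries of both states. The means were 121 ± 36.0 CPM in *Prg4*+ *Thy1*-negative cells (SD, n = 3), 109 ± 21.2 in osteoblast-lineage cells (SD, n = 4), 102 ± 48.5 in tenocyte-lineage cells (SD, n = 8), 77.1 ± 47.6 in *Thy1*+ fibroblasts (SD, n = 9), 65.0 ± 46.3 in mural cells (SD, n = 2), 59.8 ± 45.4 in chondrocyte-lineage cells (SD, n = 4), 54.9 ± 28.3 in FLS (SD, n = 8) and 54.4 ± 26 in immune cells (SD, n = 3). The single adipocyte library with enough cells held 223 CPM. No neighbours in this order among the classes with several libraries differ beyond their spread, but the classes hold different mixes of the states. Within Tom+ steady-state, osteoblast-lineage cells held 99.3 ± 13.5 CPM (SD, n = 2), *Thy1*+ fibroblasts 23.4 ± 10.8 (SD, n = 2) and FLS 35.5 ± 36.0 (SD, n = 2). Within Tom+ injured, the same classes held 119.6 ± 27.5 (SD, n = 2), 109 ± 20.8 (SD, n = 4) and 67.3 ± 28.8 CPM (SD, n = 4), so osteoblast-lineage cells lay apart from *Thy1*+ fibroblasts in steady-state and overlapped them after injury. Against *Thy1*+ fibroblasts, the log2 fold change was 1.02 in osteoblast-lineage cells (SE 0.36, edgeR adjusted p = 0.115), -0.41 in chondrocyte-lineage cells (adjusted p = 0.549) and 0.39 in tenocyte-lineage cells (SE 0.18, adjusted p = 0.264). The osteoblast value passed the threshold without Tom+ injured library 1 (1.253, edgeR adjusted p = 0.0409).

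The clearest change with injury was that of *Runx1* in *Thy1*+ fibroblasts. In Tom+ cells the 2 steady-state libraries held 31.1 and 15.8 CPM and the 4 injured libraries 80.5, 130.3, 112 and 114 CPM. In Tom-GFP+ cells the steady-state library held 6.23 CPM and the injured libraries 85.2 and 119 CPM. Every injured library lay above every steady-state library, in both lineages. The log2 fold change was 2.21 in Tom+ cells (SE 0.32, edgeR adjusted p = 0.00465), where 12.8% of genes were called, and 4.04 in Tom-GFP+ cells (SE 0.53, edgeR adjusted p = 0.0116), where 1.78% were called.

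The share of *Thy1*+ fibroblasts with *Runx1* was higher after injury as well. At 4000 UMIs per cell the steady-state share was 11.1% and 6.97% (Tom+) and 2.93% (Tom-GFP+), against 28.7% to 37.6% in the Tom+ injured and 23.0% and 36.6% in the Tom-GFP+ injured libraries. Thinned shares therefore separated the states as the CPM did. The lone Tom-GFP+ steady-state library was assumed to vary like the other groups. The Tom+ call was lost without Tom+ steady-state library 2 (1.76, edgeR adjusted p = 0.0519), and the Tom-GFP+ call without Tom-GFP+ injured library 1 (4.26, adjusted p = 0.0584) or 2 (3.76, adjusted p = 0.0531).

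**Figure D2:**
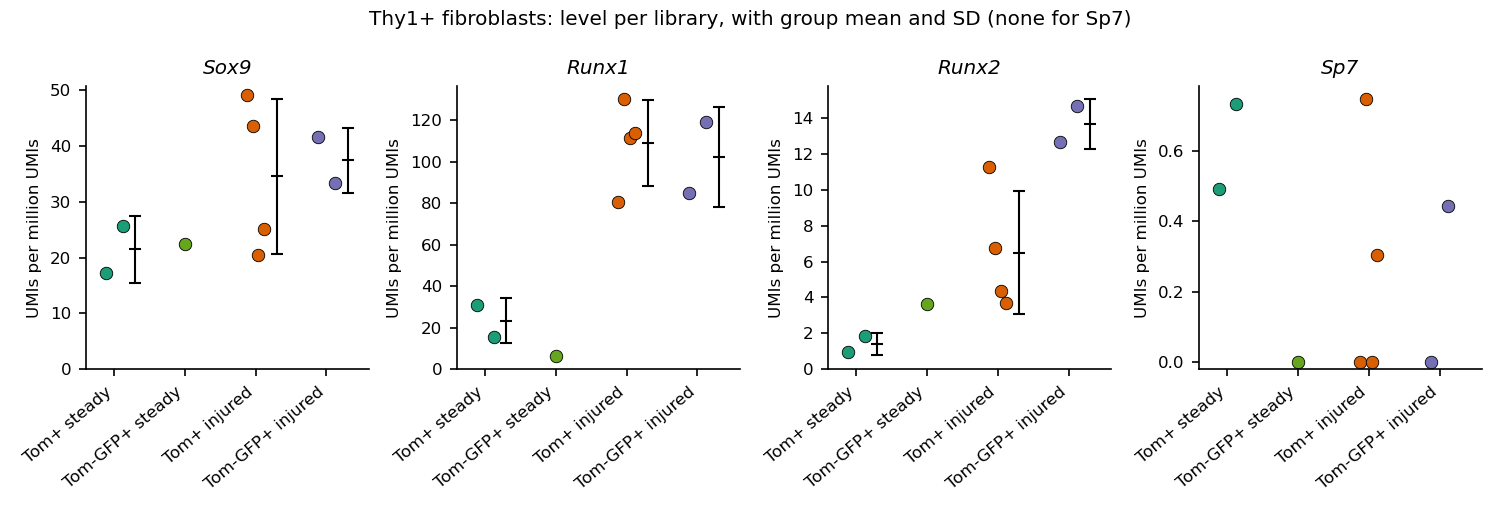
Level of each gene in *Thy1*+ fibroblasts (CPM, axis from 0), with 1 point for each library and, for *Sox9*, *Runx1* and *Runx2*, the mean and SD of groups with several libraries. *Runx1* lies at 6.23 to 31.1 CPM in the 3 steady-state and 80.5 to 130.3 CPM in the 6 injured libraries, the *Sox9* states overlap in Tom+ cells, and *Sp7* stays below 0.75 CPM.

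*Runx2* also rose with injury in Tom+ *Thy1*+ fibroblasts, from a level near the background. The steady-state libraries held 0.987 and 1.84 CPM, from 2 and 5 UMIs, and the injured libraries 11.3, 6.73, 4.34 and 3.67 CPM, from 12 to 71 UMIs. The log2 fold change was 2.16 (SE 0.62, edgeR adjusted p = 0.0492). In Tom-GFP+ cells *Runx2* stood at 3.66 CPM in steady-state and at 12.7 and 14.6 CPM after injury, a log2 fold change of 1.89 (SE 0.71, edgeR adjusted p = 0.182) that did not pass. The groups did not overlap in either lineage, though in Tom-GFP+ cells this rests on the lone steady-state library. How many of all genes show no overlap was not counted. The steady-state libraries lay around the 3.03 CPM of the pooled immune cells.

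At equal depth *Runx2* was found in 0%, 0.697% and 1.30% of steady-state *Thy1*+ fibroblasts per library and in 1.65% to 6.83% of injured ones, against 2.38% of immune cells. The Tom+ call for *Runx2* was lost with classes taken from clusters (2.42, edgeR adjusted p = 0.0516), with doubled gate thresholds (2.08, adjusted p = 0.0595), and without the cells of the highest doublet scores (2.04, adjusted p = 0.0609). It was also lost without Tom+ steady-state library 1 (1.81, edgeR adjusted p = 0.239) or 2 (2.68, adjusted p = 0.171), Tom+ injured library 2 (2.17, adjusted p = 0.0857) or 3 (2.30, adjusted p = 0.0593), or Tom-GFP+ injured library 1 (2.13, adjusted p = 0.0662) or 2 (2.15, adjusted p = 0.0626). The direction held in all 18 alternatives and the call in 9 of them, among them the fits by DESeq2, with stricter cells and without a filter. These 9 include the fit with the gene-list format as a term, in which the injury effect rests on Tom+ injured library 1 alone.

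*Sox9* in *Thy1*+ fibroblasts did not pass the test in either lineage. The Tom+ steady-state libraries held 17.3 and 25.7 CPM and the injured ones 49.0, 43.6, 20.5 and 25.1 CPM, so the groups overlap. The log2 fold change was 0.66 (SE 0.37, edgeR adjusted p = 0.256). Without a filter on low counts *Sox9* passed (0.72, edgeR adjusted p = 0.0482), as it did with the replicate number as a block (1.04, adjusted p = 0.0466). In the block fit, the injured libraries at 20.5 and 25.1 CPM share their replicate number with no other library. The block takes up their levels, so the injury effect rests on the injured libraries at 49.0 and 43.6 CPM. With classes taken from clusters the value was 1.29 (edgeR adjusted p = 0.0509). In Tom-GFP+ cells *Sox9* stood at 22.3 CPM before and at 41.5 and 33.3 CPM after injury (0.76, SE 0.52, edgeR adjusted p = 0.451). *Sp7* was too low to test, with 0 to 0.747 CPM in any library.

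The states and the gene-list formats are partly confounded. Within the older format, Tom+ injured library 1 can be set beside the steady-state libraries, and there *Runx1* stood at 80.5 against 15.8 and 31.1 CPM, *Runx2* at 11.3 against 0.987 and 1.84 CPM, and *Sox9* at 49.0 against 17.3 and 25.7 CPM. With the format as a term, the Tom+ injury effect rests on Tom+ injured library 1 alone. The log2 fold change was then 1.80 for *Runx1*, 2.91 for *Runx2* and 1.17 for *Sox9*. For Tom-GFP+ cells the format and the injury cannot be told apart within the lineage.

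The injured lineages could be compared directly, with 4 Tom+ against 2 Tom-GFP+ libraries. *Runx1* differed by 0.12 (log2, SE 0.28) and *Sox9* by -0.08 (SE 0.34), both with an edgeR adjusted p of 1, and *Runx2* by -0.98 (SE 0.42, adjusted p = 0.911), where 0.0236% of genes were called. *Runx2* was thus lower in each Tom+ injured library (3.67 to 11.3 CPM) than in each Tom-GFP+ injured library (12.7 and 14.6 CPM), a difference that fails the correction. The difference between the lineages in the injury effect was -1.83 for *Runx1* (SE 0.58, edgeR adjusted p = 1.00), where the comparison called 0% of genes (0 of 12686 by edgeR, while 237 had a p under 0.05 before adjustment and DESeq2 called 2). The larger *Runx1* fold change of Tom-GFP+ cells is therefore not shown to differ from that of Tom+ cells.

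Markers of other cells in *Thy1*+ fibroblasts were summed per library. The 7 immune markers summed to 0 to 5.20 CPM in every library. The 8 osteoblast markers, of which 4 to 7 were detected before and 6 or 7 after injury, summed to 42.4 and 54.4 CPM in the Tom+ steady-state libraries and to 8.24 to 49.1 CPM after injury, and the 9 chondrocyte markers to 133 and 155 CPM before and to 23.6 to 110.2 CPM after injury. In Tom-GFP+ cells the osteoblast markers summed to 79.8 CPM before and to 29.6 and 39.0 CPM after injury, and the chondrocyte markers to 12.1 CPM before and to 22.3 and 39.0 CPM after injury. The chondrocyte markers thus moved in opposite directions in the 2 lineages. The 5 tendon markers moved the other way, from 75.5 and 166 CPM in Tom+ and 102 in Tom-GFP+ steady-state libraries to 166 to 371 and 119 and 285 CPM after injury. The 6 markers of the fibroblast gate itself summed to 16424 to 17618 CPM in steady-state and to 8057 to 14875 CPM after injury, and the part of these lists in the result was not tested.

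**Figure D3:**
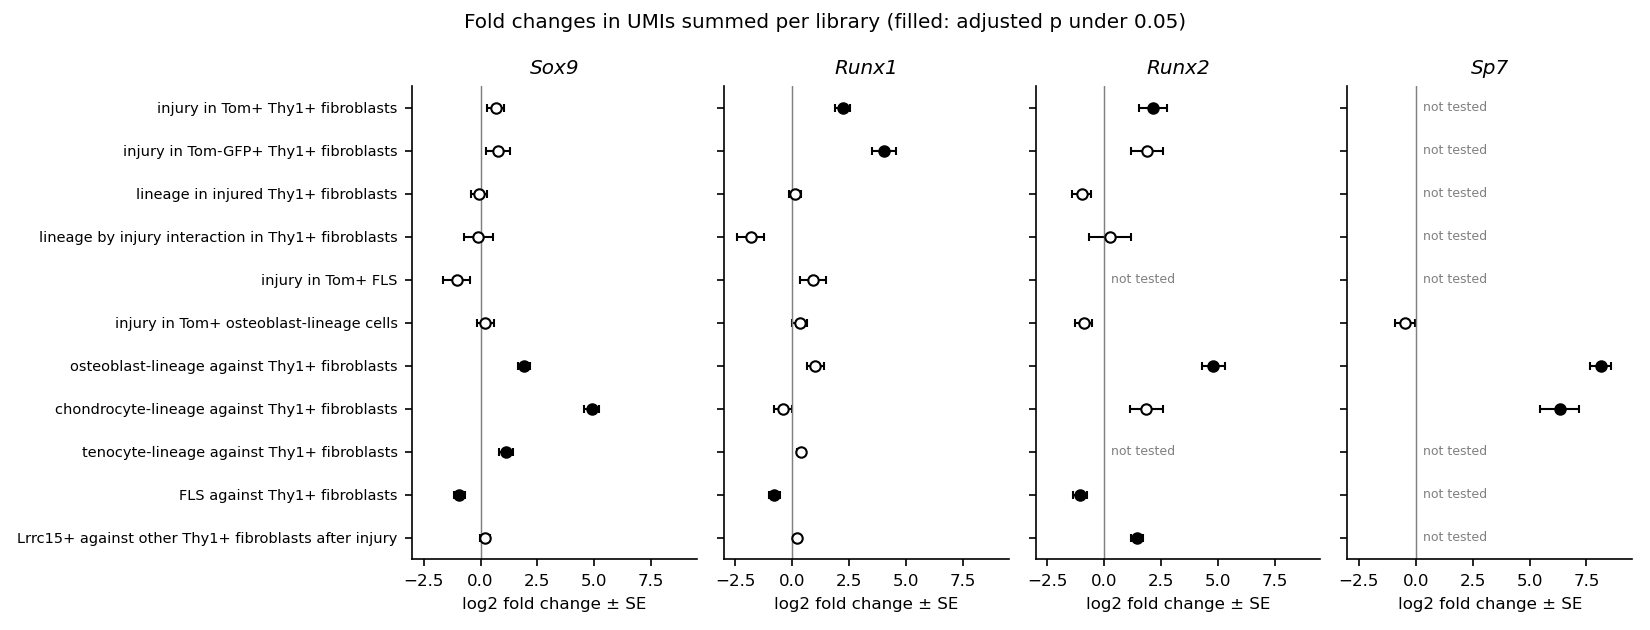
Log2 fold change (x axis) with its standard error for each gene in the 11 comparisons (y axis), from UMIs summed per library, with filled points for an adjusted p under 0.05 and "not tested" where the gene was filtered as too low. *Runx1* is filled for both injury comparisons in *Thy1*+ fibroblasts (2.21 and 4.04), *Sox9* for the 4 comparisons between classes, and *Sp7* only for the osteoblast and chondrocyte classes (8.12 and 6.32).

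*Runx1* was also higher after injury in each of the 4 *Thy1*+ fibroblast clusters that were found by clustering all cells without regard to the gates. The levels below pool the cells of a state and are given without a test. *Sox9*, *Runx1*, *Runx2* and *Sp7* were not among the genes used for clustering. In the cluster led by *Apod* and *Ccl19*, *Runx1* stood at 18.8 CPM in steady-state and at 129.9 CPM after injury. In the cluster led by *Ccl8* and *Ntrk2* it stood at 21.4 and 124 CPM, and in the cluster led by *Il1rl1* and *Crabp2* at 8.61 and 60.2 CPM. In the cluster led by *Pi16* and *Dpp4*, genes of a fibroblast found in many tissues, it stood at 6.06 and 59.2 CPM. The 4 clusters thus differed in level and shared the direction.

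*Sox9* and *Runx2* were less uniform among these clusters. In the *Il1rl1* cluster *Sox9* stood at 29.6 CPM in steady-state and 70.3 CPM after injury, and *Runx2* at 2.69 and 11.3 CPM. In the *Pi16* cluster *Sox9* stood at 11.3 and 15 CPM, and *Runx2* at 0 and 0.502 CPM, from 1 UMI in 182 injured cells. The *Il1rl1* and *Pi16* clusters therefore mark the 2 ends among the fibroblast clusters for these factors.

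**Figure D4:**
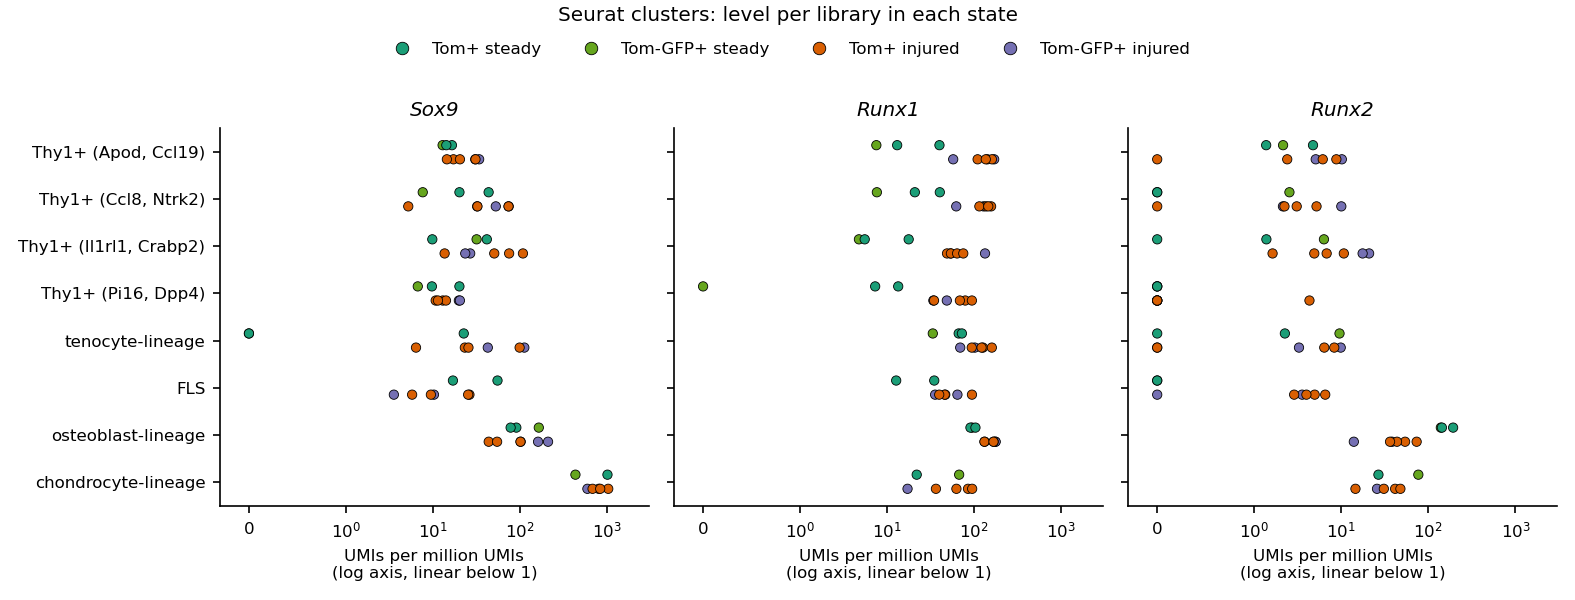
Level (CPM, log axis that is linear below 1) of *Sox9*, *Runx1* and *Runx2* in clusters of all cells, with 1 point for each library with at least 10 cells of the cluster, steady-state above injured within a row. For *Runx1* the steady-state points of the 4 *Thy1*+ clusters lie to the left of the injured points, and *Sox9* peaks in the chondrocyte-lineage cluster (865 and 773 CPM when pooled by state).

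An injury-induced state is marked by *Lrrc15*, *Adam12*, *Tnc* and *Mdk*, and cells with at least 3 of these markers and 5 UMIs of them per 10000 are called *Lrrc15*+ here. Of 1622 injured *Thy1*+ fibroblasts 336 were *Lrrc15*+, and of 890 steady-state ones none. The injury gate has a soft edge, since 96 cells lay within 25% below its threshold, 104 within 25% above it and 325 were 1 marker short. *Runx2* was higher in *Lrrc15*+ than in other *Thy1*+ fibroblasts of the same library. The 4 Tom+ libraries held 15.2, 10.4, 10.4 and 12.9 CPM in *Lrrc15*+ cells against 7.46, 5.07, 3.28 and 2.43 CPM in the others. The 2 Tom-GFP+ libraries held 20.7 and 47.4 CPM against 10.0 and 7.10 CPM. *Runx2* was thus higher in 6 of 6 libraries, by 1.47 on the log2 scale (SE 0.27, edgeR adjusted p = 0.00376), in a comparison that called 6.12% of genes.

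The depth of the cells differed between the 2 states, with a median of 18896 UMIs in *Lrrc15*+ and 12276.5 in other injured *Thy1*+ fibroblasts. At 4000 UMIs per cell the share with *Runx2* was still higher in 6 of 6 libraries, at 4.00% to 27.3% against 0.439% to 3.6%. The thinning drew UMIs at random and was not repeated. The share of 4.00% is of 25 cells (Tom+ injured library 3) and that of 27.3% of 22 cells (Tom-GFP+ injured library 2). Doubling the gate thresholds left 4 libraries and a value of 1.76 that did not pass (edgeR adjusted p = 0.0852). Outside the *Lrrc15*+ cells, *Runx2* of the injured Tom+ fibroblasts (2.43 to 7.46 CPM) remained above the 2 Tom+ steady-state libraries (0.987 and 1.84 CPM). They lay on both sides of the 3.03 CPM of all immune cells pooled and above the 1.09 CPM that immune cells averaged over libraries.

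*Sox9* and *Runx1* did not pass the same test. *Sox9* stood at 59.2, 39.2, 29 and 5.15 CPM in *Lrrc15*+ cells of the Tom+ injured libraries against 39.2, 45.6, 19.0 and 27.7 CPM in the others, and at 58.1 and 23.7 against 36.0 and 35.5 CPM in the Tom-GFP+ libraries. It was higher in 3 of 6 libraries (log2 fold change 0.18, edgeR adjusted p = 0.742). *Runx1* stood at 81.2 to 146 CPM in *Lrrc15*+ cells and at 73.4 to 123 CPM in the others (0.21, edgeR adjusted p = 0.297). With the *Lrrc15*+ cluster in place of the gate, *Sox9* (1.02, edgeR adjusted p = 0.0145) and *Runx1* (0.61, adjusted p = 0.00537) both passed, and that cluster held 404 injured cells with 77.5 CPM of *Sox9*, 137 of *Runx1* and 20.2 of *Runx2*.

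**Figure D5:**
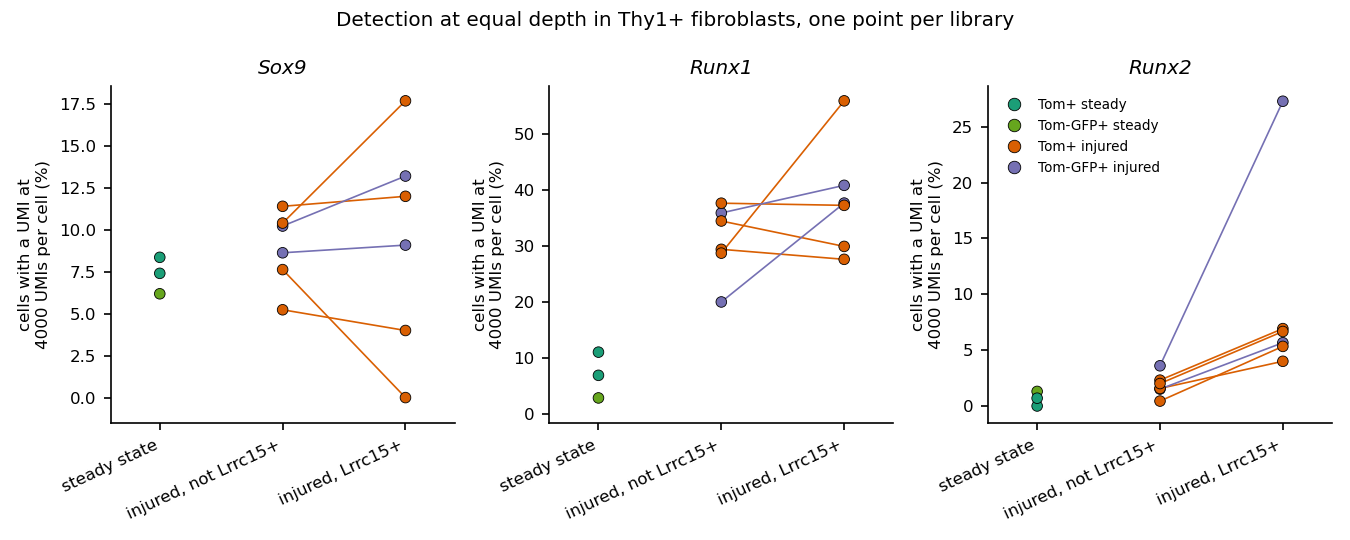
Share of *Thy1*+ fibroblasts with a UMI of *Sox9*, *Runx1* or *Runx2* after thinning to 4000 UMIs per cell (y axis, percent), in steady-state, injured cells outside the *Lrrc15*+ gate and *Lrrc15*+ cells, with 1 point for each library and lines joining the same library. The *Runx1* share steps up between steady-state (2.93% to 11.1%) and both injured states, whereas the *Runx2* share is highest in *Lrrc15*+ cells (4.00% to 27.3%).

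The 2 lineage factors of cartilage and bone were also looked for in the same cell. Among *Lrrc15*+ *Thy1*+ fibroblasts, 43 of 336 cells (12.8%) held UMIs of both *Sox9* and *Runx2*, against 9.29% from the product of the 2 shares. Among other injured *Thy1*+ fibroblasts it was 26 of 1286 (2.02% against 1.36%), and in steady-state 4 of 890. At 4000 UMIs per cell the *Lrrc15*+ figure was 0.597% (2 of 335 cells) against a product of 0.936%, and that of other injured *Thy1*+ fibroblasts 0.402% (5 of 1244) against 0.159%. At equal depth these counts are too few to read a difference. By library the counts were 19 of 130, 8 of 75, 1 of 25 and 0 of 31 in the Tom+ and 10 of 53 and 5 of 22 in the Tom-GFP+ injured libraries.

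With *Scx*, a factor of the tendon lineage, as the third gene, triple-positive cells were found mainly in 2 libraries. Of 619 *Lrrc15*+ cells of any class after injury, 55 (8.89%) held UMIs of *Sox9*, *Runx2* and *Scx*, and 41 of the 55 came from Tom+ injured library 1 and 10 from Tom+ injured library 2. Tom+ injured libraries 3 and 4 had 0 of 31 and 0 of 62 such cells, which allows shares of up to 9.68% and 4.84%, and the Tom-GFP+ libraries 3 of 93 and 1 of 42. The triple-positive cells had a median of 24429 UMIs against 18861 for all *Lrrc15*+ cells. Within Tom+ injured library 1 the share was 16.2%, beside a product of the 3 shares of 13.3%.

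Dividing cells were looked at apart. Among injured *Thy1*+ fibroblasts, 83 cycling cells held 24.4 CPM of *Sox9*, 67.8 of *Runx1* and 15.1 of *Runx2*, pooled over libraries. The other 1539 held 39.4, 106 and 8.52 CPM. These values are pooled and were not tested.

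In FLS, *Sox9* and *Runx1* could be tested for injury and neither passed, while *Runx2* and *Sp7* were too low to test. *Sox9* stood at 23.3 and 51.2 CPM in the Tom+ steady-state libraries and at 24.3, 24.7, 13.9 and 6.55 CPM in the Tom+ injured ones (log2 fold change -1.06, SE 0.59, edgeR adjusted p = 0.357). *Runx1* stood at 9.98 and 61 CPM before and at 54.5, 108, 63.8 and 42.3 CPM after injury (0.91, SE 0.56, edgeR adjusted p = 0.404), and without a filter on low counts it passed (1.04, adjusted p = 0.0177). In both genes the groups overlap, and 3.31% of genes were called in this comparison. *Runx2* had 0 UMIs in the 20 and 28 steady-state Tom+ FLS and 3.02 to 5.95 CPM after injury. A level of 3 UMIs in those steady-state cells would be 9.98 and 7.31 CPM, so a difference was not detectable at this depth.

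In osteoblast-lineage cells none of the 4 genes passed the test for injury. *Runx2* stood at 269 and 177 CPM in steady-state and at 147 and 85.0 CPM after injury (log2 fold change -0.90, SE 0.36, edgeR adjusted p = 0.260), and *Sp7* gave -0.46 (SE 0.43, adjusted p = 0.661). *Runx2* did not overlap between the 2 groups of 2 libraries, whereas *Sp7* did. The test called 3.33% of genes, and the share of all genes without overlap was not counted. *Sox9* gave 0.22 (SE 0.39) and *Runx1* 0.33, both short of the threshold. Without Tom+ injured library 1, which leaves 1 injured library, the *Runx2* value was -1.24. With classes taken from clusters *Runx2* passed (-1.54, edgeR adjusted p = 0.0225, 9 libraries), and its pooled level was 155 CPM in steady-state and 52.9 CPM after injury. Of the 364 cells of that cluster, 137 were in the osteoblast-lineage gate, 152 in no gate and 41 in the *Thy1*+ fibroblast gate. The part of this mix in the lower *Runx2* was not tested.

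At equal depth *Runx2* was found in 73.7% and 54.5% of steady-state and in 41.2% and 20.8% of injured osteoblast-lineage cells. *Runx2* and *Sp7* were found together in 40 of 91 steady-state cells (44.0%, product of the shares 37.4%) and in 18 of 59 injured cells (30.5%, product 26.5%). The 8 markers of the gate summed to 16461 to 17555 CPM in the steady-state and to 14449 to 21545 CPM in the injured libraries, so the marker level itself overlapped between the states.

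The 37 cells that passed both the osteoblast and the chondrocyte gates carried all 4 factors. Pooled over the 30 injured cells, *Sox9* stood at 624 CPM, *Runx1* at 52.4, *Runx2* at 54.8 and *Sp7* at 117 CPM, and the 7 steady-state cells held 1063, 81.7, 58.4 and 105 CPM. *Sox9* and *Sp7* occurred together in 19 of the 30 injured cells (63.3%, product of the shares 60%) and *Sox9* and *Runx2* in 13 (43.3%, product 42%). The injured value of *Sox9* lay just below the lowest chondrocyte-lineage library (629.6 CPM), and the *Sp7* values lay within the range of the osteoblast-lineage libraries. Of the 37 cells, 5 were among those with the highest doublet scores, beside 315 of all 4788 cells.

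Genes that act with or against these factors, or are known targets of them, were taken as lists. Of the 14 *Sox9* target genes, 7 were tested and not part of the gate in chondrocyte-lineage cells against *Thy1*+ fibroblasts, and all 7 were higher (of all genes, 7.12% were higher and 9.44% lower), with a median log2 fold change of 10.25 against -0.16 for all genes. They include the collagens *Col9a3* (10.95), *Col11a2* (10.44) and *Col9a1* (10.37). The gate itself uses 6 other genes of this list, so its cells were selected for cartilage genes. A gene near 0 in the fibroblasts could also enter the test through the chondrocyte-lineage class alone. The count of 7 and the median therefore describe the gated cells in this comparison and are no separate evidence on *Sox9*. Of 12 partner genes 8 were tested there, 6 were higher and 1 lower, led by *Runx3* (9.48), *Sox6* (4.91) and *Sox8* (3.50), with *Msx1* (-1.22) lower. Of 10 tested *Runx2* and *Sp7* targets 6 were higher, led by bone sialoprotein *Ibsp* (8.41), alkaline phosphatase *Alpl* (4.77) and osteopontin *Spp1* (4.40), and *Col1a1* was lower (-3.99). Of 8 tested antagonists *Trps1* (0.94) was higher and *Twist2* (-2.69) lower, and of 3 tendon factors *Egr2* (1.69) and *Egr1* (1.40) were higher.

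In osteoblast-lineage cells against fibroblasts, where 4.68% of all genes were higher and 5.22% lower, 4 of 8 tested partners were higher and 1 lower. Among the higher ones were *Dlx5* (3.90), *Sox6* (3.54) and *Cbfb* (2.00), the last encoding the shared partner of the Runx proteins and named, like *Comp* below, after its value was seen, and *Msx1* was lower (-1.93). Of 5 *Runx2* and *Sp7* targets outside the gate 4 were higher, among them collagenase *Mmp13* (7.73), *Spp1* (5.34) and the parathyroid hormone receptor *Pth1r* (5.04). The osteoblast gate uses 8 other genes of this list, so this count likewise describes the gated cells. All 4 tested *Sox9* targets were higher as well, *Col11a1* (4.58), *Acan* (2.50), *Col27a1* (2.27) and *Comp* (1.69). Of the 9 *Runx2* antagonists, 8 were tested and 2 were higher, *Zfp521* (1.18) and *Trps1* (0.80), and of the tendon factors *Mkx* was higher (4.04).

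In tenocyte-lineage cells against fibroblasts (2.84% of all genes higher, 4.21% lower), 3 of 4 tested *Sox9* targets were higher, *Col11a1* (4.74), *Acan* (2.79) and *Comp* (2.00), and of the tendon factors *Scx* was higher (3.00) and *Egr1* lower (-1.49). Of 5 tested *Runx2* and *Sp7* targets there *Mmp13* (1.63), *Pth1r* (1.13) and *Col1a1* (1.10) were higher, of 5 partners *Msx1* (-1.42) and *Sox5* (-1.06) were lower, and of 8 antagonists *Trps1* (0.79) and *Zfp521* (0.64) were higher. FLS (17.7% of all genes higher, 20% lower) had both tested *Sox9* targets lower, *Comp* (-4.05) and *Col27a1* (-1.73), while of 7 tested partners 3 were higher, *Dlx3* (3.91), *Sox5* (2.94) and *Sox6* (2.56), and *Dlx5* was lower (-1.58). Of 7 tested *Runx2* and *Sp7* targets in FLS, *Bglap2* (5.10), *Bglap* (4.42) and *Smpd3* (1.47) were higher and *Col1a1* (-1.95) and *Vegfa* (-1.84) lower, and of the tendon factors *Scx* was lower (-1.12). Of 8 tested *Runx2* antagonists in FLS, 3 were lower, *Twist1* (-2.33), *Twist2* (-1.94) and *Zfp521* (-1.60), and *Trps1* was higher (0.88). Over the libraries of both states, *Sox5* and *Sox6* therefore did not follow *Sox9* between these 2 fibroblast classes.

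With injury in Tom+ *Thy1*+ fibroblasts, 3 of 11 tested *Runx2* and *Sp7* targets were higher and 2 lower, beside 5.18% and 7.65% of all genes. *Mmp13* stood at 0.735 and 1.48 CPM in steady-state and at 16.1 to 49.5 CPM after injury (log2 fold change 4.92), *Spp1* at 11.0 and 11.3 against 169 to 727 CPM (5.26), and *Col1a1* at 1725 in both steady-state libraries against 7130 to 9492 CPM (2.22). *Smpd3* (-4.38) and *Alpl* (-3.39) were lower. Of 6 tested *Sox9* targets *Acan* (5.25) and *Col27a1* (2.70) were higher, and of 7 partners *Msx1* (-1.93) and *Dlx5* (-1.72) were lower. None of 8 *Runx2* antagonists passed, and of 3 tendon factors *Egr2* (1.31) did. *Cbfb* stood at 37.0 and 37.5 CPM before and at 38.5 to 54.7 CPM after injury and did not pass the test.

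In Tom-GFP+ *Thy1*+ fibroblasts 2 of the 11 targets were higher, *Mmp13* (5.56) and *Col1a1* (2.68), *Smpd3* was lower (-3.38), and no gene of the other 4 lists passed, where 0.568% of all genes were higher and 1.21% lower. Between the injured lineages no gene of any list passed (0.00788% of all genes higher and 0.0158% lower in Tom+). In *Lrrc15*+ cells against other injured *Thy1*+ fibroblasts, *Col27a1* (1.04) and *Col1a1* (0.64) were higher and *Bglap2* (-3.26), *Msx1* (-0.85) and *Sox5* (-0.84) lower, beside 2.46% and 3.66% of all genes. In Tom+ osteoblast-lineage cells after injury, *Col11a1* (3.31) and *Acan* (2.38) of 5 tested *Sox9* targets and *Col1a1* (2.37), *Mmp13* (1.72) and *Spp1* (1.47) of 4 tested bone targets were higher, while *Dlx5* (-2.68) and *Egr1* (-2.63) were lower, beside 1.83% and 1.49% of all genes. Higher *Spp1* and *Mmp13* thus stood beside a *Runx2* level that was not higher in the osteoblast-lineage gate. In Tom+ FLS, *Spp1* (2.83) and *Col1a1* (0.88) were higher and *Smpd3* (-3.59) and *Egr1* (-1.20) lower after injury, beside 1.15% and 2.15% of all genes.

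The genes whose pattern was most like each factor were named from 40 sums of cells by library and class, with at least 20 cells each, over 8112 genes. These sums share libraries, depth and classes, so the correlations of log2(CPM + 10) are a description. For *Sox9* they were *1190002N15Rik* (Pearson's r 0.889), *Col27a1* (0.846) and *Efna1* (0.831). For *Runx2* they were *Alpl* (0.863), *Sp7* (0.852) and *Galr2* (0.851), and for *Sp7* they were *Alpl* (0.936), *Ptprz1* (0.922) and *Lmo7* (0.888), where *Alpl* is a marker of the osteoblast gate. For *Runx1* the likeness was weaker, with *Sphk1* (0.737), *Gnl3* (0.710) and *Rac3* (0.703).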

How the data were processed

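The authors deposited 1 matrix of UMI counts per library (10x Genomics 5′ chemistry). The submitters' processing notes name Cell Ranger and GRCm38.p6, and the newer-format matrices give version 3.0.2. No annotation of cell types was used. The 4 genes and all lists were chosen with earlier results of these data known.

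Of 5161 barcodes, the 4788 with 500 genes or more, 1000 UMIs or more and no more than 10% of UMIs from mitochondria entered the analysis. Classes came from marker gates, each with a minimum number of markers and of summed marker UMIs per 10000 UMIs (4 of 6 and 20 for *Thy1*+ fibroblasts, 4 of 6 and 50 for FLS, 3 of 9 and 20 for chondrocyte-lineage, 3 of 8 and 10 for osteoblast-lineage, 3 of 5 and 10 for tenocyte-lineage cells, 3 of 4 and 5 for the *Lrrc15*+ state). Scrublet in scanpy 1.11.5 predicted 52 doublets (1.09%). They were kept, and an alternative left out the 315 cells with the highest scores. Thinning to 4000 UMIs left out 292 shallower cells. Intervals are exact binomial (95%) and a count of 0 was read as allowing 3 counts.

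UMI counts were summed per library and class with at least 10 cells and tested with the quasi-likelihood test of edgeR 4.0.16 in R 4.3.3 over all genes past its filter on low counts, with Benjamini-Hochberg adjustment and a threshold of 0.05. The comparisons within *Thy1*+ fibroblasts came from 1 fit of all 9 libraries and share libraries, as do those of each class against the fibroblasts, which kept the library as a term. The fit was tested on simulated data. Alternatives were DESeq2 1.42.0, no filter, clusters from Seurat 5.3.0 (2000 variable genes, 30 dimensions, resolution 1), doubled gate thresholds, stricter cells, the format of the gene list, the replicate number as a block and leaving out each library.

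Named genes are the 4 members, the 3 genes most correlated with each, and, of each list and comparison, up to 3 genes past the threshold in each direction with the largest absolute log2 fold change. Markers of the gates that define the compared classes were not counted. Markers of the other gates, such as *Acan*, *Ibsp* and *Alpl*, were counted, although cells that passed those gates had been moved out of the compared classes. The result of a partner gene in osteoblast-lineage cells is not reported here.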

Additional observations from a re-analysis of the deposited data

How the results depend on the processing

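Of 263 fold changes recomputed under other settings, 238 kept their direction and call, 19 changed call and 6 reversed, and of 87 counts of called genes 24 moved by more than 1.5 times. The causes were not tested. Adjusted p-values are from edgeR unless DESeq2 is named.

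Without a filter on low counts, the genes called numbered 2924 (injury in Tom+ *Thy1*+ fibroblasts), 1661 (Tom-GFP+), 383 (lineage), 78 (interaction), 1103 (FLS injury), 380 (osteoblast-lineage injury), 1512 (osteoblast-lineage against fibroblasts), 1165 (tenocyte-lineage against fibroblasts) and 1047 (*Lrrc15*+). There *Sox9* passed in Tom+ injury (0.72, edgeR adjusted p = 0.0482), *Runx2* in Tom-GFP+ injury (1.97, adjusted p = 0.0240), *Runx1* in FLS (1.04, adjusted p = 0.0177) and *Runx1* in osteoblast-lineage cells against fibroblasts (0.91, adjusted p = 0.00328). DESeq2 called 460 genes for Tom-GFP+ injury, 50 for the lineage and 2 for the interaction, and *Sox9* in tenocyte-lineage cells did not pass (0.83, DESeq2 adjusted p = 0.303).

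With classes from clusters, Tom+ *Runx2* was 2.42 (edgeR adjusted p = 0.0516), the lineage difference of *Sox9* reversed to 0.35 with 7 genes called, and tenocyte *Sox9* reversed to -0.0812. Osteoblast-lineage injury called 233 genes with *Runx2* at -1.54, osteoblast-lineage cells against fibroblasts 1379 with *Runx1* at 1.04 (edgeR adjusted p = 0.0178), and *Lrrc15*+ cells 1834 with *Sox9* at 1.02 and *Runx1* at 0.61. Chondrocyte-lineage *Runx2* passed at 2.50 (edgeR adjusted p = 0.000679). With doubled gate thresholds it passed at 2.41, Tom+ *Runx2* was 2.08, *Sox9* in FLS against fibroblasts -0.66, *Lrrc15*+ *Runx2* 1.76 with 46 genes called, and osteoblast-lineage injury called 204. Without the highest doublet scores Tom+ *Runx2* was 2.04 and osteoblast-lineage injury called 49 genes. With stricter cells tenocyte *Sox9* was 0.90 (edgeR adjusted p = 0.135).

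With the gene-list format as a term, Tom-GFP+ injury called 502 genes and *Runx2* passed (3.09, edgeR adjusted p = 0.0239), the lineage called 7, FLS injury 77, the interaction of *Runx2* reversed to -0.17, and osteoblast-lineage injury reversed for *Sox9* (-0.47) and *Runx1* (-0.00506).

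Replicate numbers were not used to pair samples in the main fits, and the lineage test had no term for the mouse. Over 5209 genes, same-numbered Tom+ steady-state and Tom+ injured libraries had correlations of 0.0378 and 0.123. Same-numbered Tom+ and Tom-GFP+ injured libraries had 0.275 and 0.271. Pairs with different numbers were not computed, and the deviations in a group of 2 libraries mirror each other. These values therefore cannot decide whether the numbers pair samples. With the number as a replicate block, Tom+ *Sox9* passed (1.04, edgeR adjusted p = 0.0466) and the lineage difference of *Sox9* reversed to 0.30. FLS injury then called 153 genes and osteoblast-lineage injury 197. Tom+ injured libraries whose number no other library shares are taken up by the block and do not enter these effects. The block changed no other call of these 4 genes.

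Leaving out each library in turn, Tom+ injury gave 248 to 2052 genes called, *Sox9* 0.39 to 0.96, *Runx1* 1.76 to 2.75 and *Runx2* 1.71 to 2.68. Tom-GFP+ injury gave 1 to 1017 genes, *Sox9* 0.58 to 0.88, *Runx1* 3.76 to 4.26 and *Runx2* 1.77 to 1.99. The lineage gave 0 to 9 genes, *Sox9* -0.31 to 0.0926, *Runx1* -0.12 to 0.41 and *Runx2* -1.42 to -0.80. The interaction gave 0 genes throughout, *Sox9* -0.35 to 0.22, *Runx1* -2.26 to -1.27 and *Runx2* -0.18 to 0.80. FLS injury gave 17 to 546 genes, *Sox9* -1.44 to -0.32 and *Runx1* 0.26 to 2.85. Osteoblast-lineage injury gave 40 to 369 genes, *Sox9* -0.47 to 0.63, *Runx1* -0.00288 to 0.56, *Runx2* -1.24 to -0.54 and *Sp7* -0.93 to 0.20. Against fibroblasts, osteoblast-lineage cells gave 536 to 961 genes, *Sox9* 1.75 to 2.22, *Runx1* 0.50 to 1.43, *Runx2* 4.34 to 5.39 and *Sp7* 7.34 to 8.80, and chondrocyte-lineage cells 934 to 1415 genes, *Sox9* 4.67 to 5.24, *Runx1* -0.70 to -0.12, *Runx2* 0.47 to 2.54 and *Sp7* 6.25 to 6.65. This *Sp7* range covers only the 2 of 4 runs in which *Sp7* passed the filter on low counts. Tenocyte-lineage cells gave 516 to 614 genes, *Sox9* 0.83 to 1.28 and *Runx1* 0.31 to 0.49, and FLS 3138 to 3787 genes, *Sox9* -1.11 to -0.79, *Runx1* -0.97 to -0.64 and *Runx2* -1.15 to -0.90. The *Runx2* range in FLS covers only the 5 of 8 runs in which the gene passed the filter. *Lrrc15*+ cells gave 320 to 528 genes, *Sox9* -0.00232 to 0.32, *Runx1* 0.10 to 0.26 and *Runx2* 1.19 to 1.63. Leaving out the lone Tom-GFP+ steady-state library was not run for Tom-GFP+ injury and the interaction, which need it.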

Other observations

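A small cluster of 26 cells, left unnamed, held *Runx1* and *Runx2* without *Sp7*. It was led by *Esm1*, *Gdpd2*, *Kng1*, *Lepr*, *Kitl* and *Adipoq*, and its median cell had 5004.5 UMIs. *Runx1* stood at 459 CPM (19 of 26 cells) and *Runx2* at 161 CPM (13 of 26), *Sp7* had 0 UMIs and *Sox9* was found in 1 cell. *Cxcl12*, a chemokine, stood at 30224 CPM and *Ibsp* was found in 24 of 26 cells, while the adipocyte genes *Plin1* and *Cidec* and the osteoblast gene *Bglap* had 0 UMIs. The cluster was chosen after its values were seen, and its cells came from 8 libraries.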
